A study of Equus caballus with 20 samples.

Results

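The miRNAs of extracellular vesicles in preovulatory follicles of the mare were compared with those in deviation follicles. Deviation is the point of a follicular wave at which the future dominant follicle outgrows the others, and the preovulatory follicle is the large one that nears ovulation. Deviation follicles measured 22 to 25 mm and preovulatory follicles 30 to 35 mm, with 4 libraries each out of 20 from 5 stages. All came from mares of a single breed, 8 to 14 years old and 19 in the study, and no treatment, allele or agent sets the stages apart in the labels. In every mare the follicles of 6 mm or more had been ablated on day 10 or 11 of the cycle, so that a new wave grew, and a sampled follicle had been growing for 3 days or more. Vesicles were pelleted by ultracentrifugation from 2 ml of fluid aspirated in vivo, and their small RNA was sequenced. The miRNAs described are those above 0 in at least 4 of the 8 libraries, which held for 222 of the 686 names in the table. Of all names, 325 were above 0 in any of the 20 libraries and 312 in any of the 8. Of the 222, 141 were above 0 in all 8 libraries and 20 in exactly 4, while 24 names above 0 in exactly 3 were left out. The miRNAs just inside included miR-374a (3 reads at deviation, 65 at preovulatory) and miR-769a-5p (4 and 50), and those just outside miR-708 (0 and 59) and miR-598 (0 and 48). No miRNA was above 0 in all 4 libraries of one stage and at 0 in all 4 of the other. The 222 held at least 99.7% of the signal of each library.

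A miRNA is a short RNA that guides Argonaute proteins to messenger RNAs with matching sites and lowers their translation and stability. Cells release some miRNAs in vesicles, and follicular fluid carries vesicles of granulosa, theca and cumulus cells beside material that filters in from blood. After deviation the dominant follicle acquires receptors for luteinizing hormone (LH) in its granulosa layer and depends less on follicle-stimulating hormone. The table holds no marker of vesicles as such, so the vesicle label could not be checked against it, and in such pooled fluid fewer vesicles of a cell type and less miRNA per vesicle cannot be told apart.

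Recovered reads ranged from 71805 to 94917 at deviation and were 105466, 65120, 27131 and 110062 in preovulatory libraries 1 to 4. Preovulatory libraries 1 and 4 stood apart from the other 6. Over the 141 miRNAs above 0 in all 8 libraries, their log2 values correlated with each other at r = 0.969, but with the deviation libraries at only 0.797 to 0.866 and with preovulatory 2 and 3 at 0.816 to 0.851. Preovulatory 2 and 3 correlated with the deviation libraries at 0.867 to 0.949, within the range seen among deviation libraries or just under it (0.900 to 0.960). These correlations are across miRNAs, which are not independent, and they describe the libraries. Libraries 1 and 4 were also the deepest, and held the most miRNAs, 253 and 264 against 180 to 228 in the other 6. At an equal depth of 27131 reads they were still the richest, with 212 and 218 against 168 to 188. The part of depth in what follows was not tested. Beside many results that these libraries move widely, though not all, the value without both is given.

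**Figure D1:**
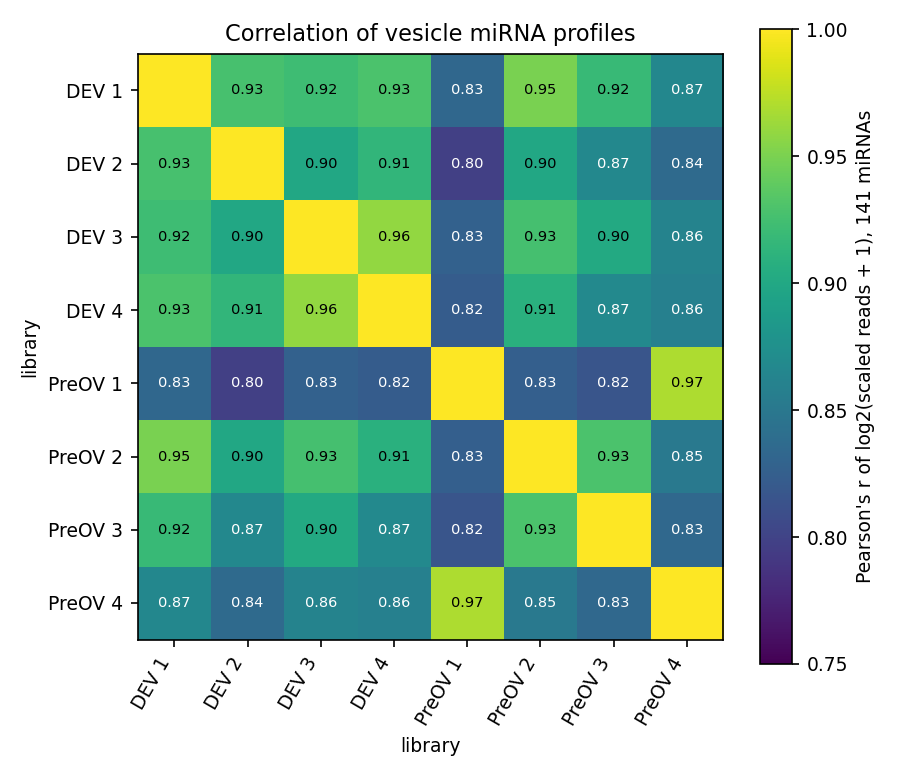
Pearson correlation of log2(value + 1) between each pair of the 8 libraries over the 141 miRNAs above 0 in all of them, as a colour grid with libraries on both axes. Preovulatory 1 and 4 share an r of 0.969 and lie between 0.797 and 0.866 with the other 6 libraries.

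No miRNA differed between the stages past the threshold. With limma on log2(value + 1), 0 of 222 (0%) had an adjusted p under 0.05, and the lowest adjusted p was 0.309. At an unadjusted p under 0.05 there were 29 (13.1% of those tested), 21 higher at preovulatory (9.46%) and 8 lower (3.6%). For 10 miRNAs (4.5%) all 4 preovulatory libraries lay above all 4 deviation libraries, and for 6 (2.7%) all lay below, 16 in all (7.21%). The fitted log2 differences were near balanced, 113 above 0 and 109 below, with a median of 0.02. Other tools differed on the call. edgeR, with TMM or with the deposited scale, called 0. DESeq2 gave no adjusted p for 65 miRNAs, which it could not call, and the percentages here are of all 222. DESeq2 called 16 (7.21%; 14 higher, 6.31%), and limma with a weight per library called 21 (9.46%; 14 higher, 6.31%). They shared 9, which is 56.2% of the DESeq2 calls and 42.9% of the weighted ones: miR-106b, miR-107a, miR-17, miR-20a, miR-218, miR-92a, miR-93 and miR-9a, all higher, and miR-222, lower. The weights were 1.47, 0.571, 0.497 and 2.82 for preovulatory 1 to 4, so the weighted fit leaned on libraries 1 and 4. Without those 2 libraries limma, DESeq2 and weighted limma each called 0, with 21, 17 and 35 at an unadjusted p under 0.05. Precision was low, with a median half-width of the 95% interval of 2.28 on the log2 scale.

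**Figure D2:**
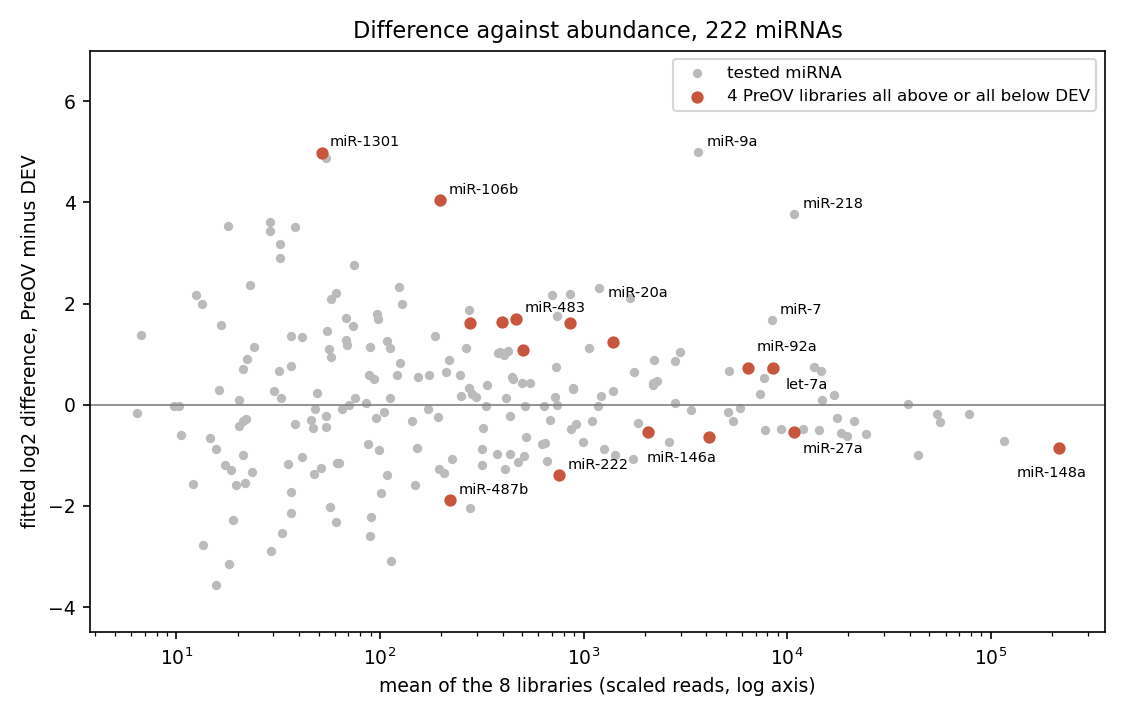
Fitted log2 difference, preovulatory minus deviation, against the mean of the 8 libraries (log scale) for the 222 miRNAs, with the miRNAs whose groups do not overlap in colour, 10 higher and 6 lower. None of the points passes the adjusted threshold, and the scatter widens to the left, where miRNAs are scarce.

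The direction of these counts depended on the scaling. Preovulatory columns summed to less than deviation columns, 895955 ± 97563 against 1074460 ± 99756 scaled reads (SD, n = 4 each; exact permutation p = 0.0857, adjusted 0.214 over 5 library measures). Scaled to equal totals, 19 miRNAs lay wholly above and 0 wholly below, while quantile normalization gave 5 and 7. The split of unadjusted p under 0.05 was 21 higher to 8 lower on the deposited scale, 30 to 3 at equal totals, 35 to 5 with edgeR and TMM, and 19 to 19 with quantile normalization. The median of all 222 log2 differences was 0.29 at equal totals, 0.22 with TMM and -0.14 with quantile normalization.

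In these libraries the cargo was less concentrated in a few miRNAs at preovulatory, a difference that did not pass after adjustment. The 10 most abundant miRNAs of a library held 72.2%, 72.5%, 74.8% and 75.8% of the signal in deviation libraries 1 to 4 and 65.7%, 67.9%, 67.0% and 60.8% in preovulatory ones, each share known to within 0.560 percentage points by counting (95% Wilson interval). Every preovulatory share lay below every deviation share (73.8% ± 1.76 against 65.4% ± 3.15; SD, n = 4 each). This gave p = 0.0286 by an exact two-sided permutation test, the smallest that 70 arrangements allow, and 0.143 after adjustment over 5 measures. Among the 10 most abundant by mean over the 8 libraries, miR-148a moved most, from a mean share of 26.1% to 17.3%. The mean shares of miR-99a, miR-192, miR-423-5p and miR-486-5p were higher at preovulatory, and those of the others were lower. The number of miRNAs per library was 215 ± 13.0 against 222 ± 42.6 (exact permutation p = 0.771), and at equal depth 181 ± 6.16 against 195 ± 24.1 (p = 0.371 by the same exact test).

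miR-148a, the most abundant miRNA of the 8 libraries by mean, stood at 242743, 361034, 242927 and 265173 scaled reads in deviation 1 to 4 and at 188836, 145935, 139410.0 and 137680.0 in preovulatory 1 to 4. On the deposited scale all 4 preovulatory libraries lay below all 4 deviation libraries. The fitted log2 difference was -0.85 ± 0.33 (SE; 95% interval -1.55 to -0.16; limma adjusted p = 0.309), and it was -0.94 without preovulatory 1 and 4. As a share of the signal it was 26.1% ± 5.83 at deviation and 17.3% ± 3.47 at preovulatory. By share the stages overlapped, with 21.9% in preovulatory 1 and 20.7% in deviation 3. Weighted limma called miR-148a and DESeq2 did not.

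The other abundant miRNAs overlapped between the stages already on the deposited scale. miR-21, a miRNA known for its induction by LH in granulosa cells of rodents and for roles in cell survival, read 100644, 36144, 227935 and 178299 at deviation and 30344, 109323, 216068 and 27871 at preovulatory. It was lowest in preovulatory 1 and 4, and its log2 difference of -0.72 ± 0.74 turned to 0.48 without them. miR-10a, encoded within the HOX gene clusters like miR-10b, read 32908, 71318, 65469 and 52709.9 at deviation and 10449.6, 55455, 45119 and 19742 at preovulatory (log2 difference -0.99 ± 0.41, limma adjusted p = 0.320). Again libraries 1 and 4 were the low ones, and without them the difference was -0.093. Weighted limma called it lower with all libraries. miR-10b itself lay between 34649.5 and 84780.1 in the 8 libraries, with a log2 difference of -0.34 ± 0.39. The rest of the 10 most abundant were miR-99a, miR-192, miR-423-5p, miR-486-5p, miR-215 and miR-143, with log2 differences between -0.61 and 0.02 and adjusted p of 0.656 or more.

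**Figure D3:**
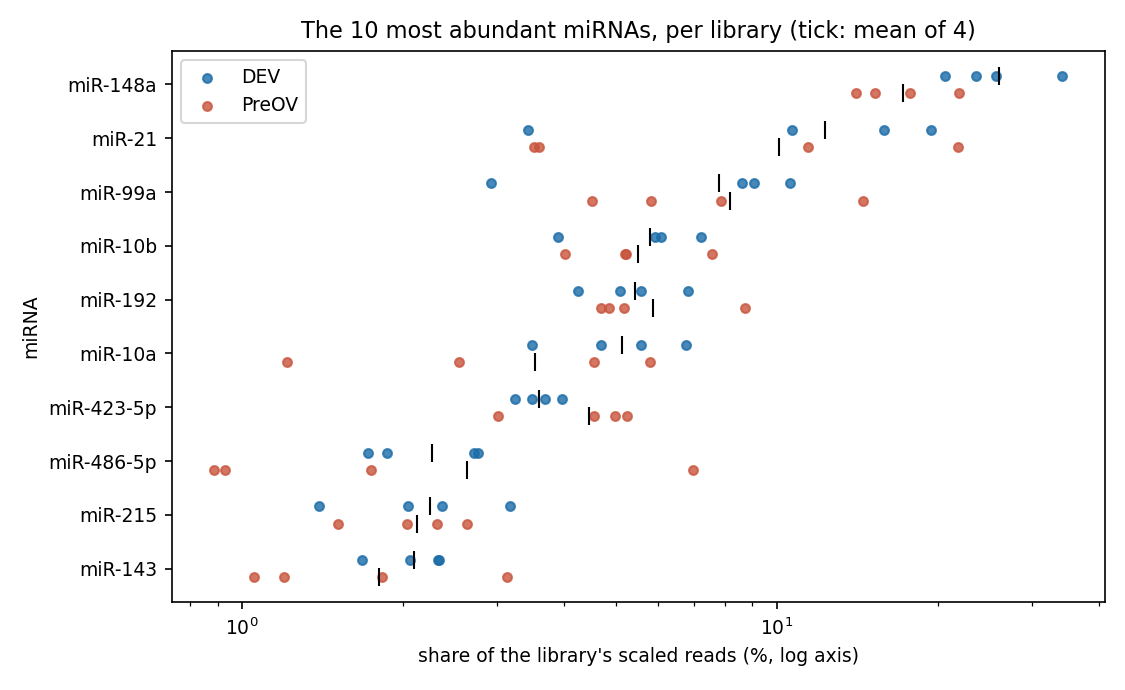
Share of the signal of a library, in percent, held by each of the 10 most abundant miRNAs, on a log axis, with a point per library and a tick at the mean of each stage (DEV, deviation; PreOV, preovulatory). The mean share of miR-148a is 26.1% at deviation and 17.3% at preovulatory, and miR-21 spreads widely within both stages.

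The miR-17-92 cluster and its paralogs are growth-promoting miRNAs, whose products miR-17, miR-20a, miR-93 and miR-106b share a seed. Of 13 names, 10 were tested and none passed the adjusted threshold. The fitted difference was above 0 for 8 and below for 2, with a median log2 of 2.02 against 0.02 over all tested miRNAs, and 6 of the 10 had an unadjusted p under 0.05, all higher, where 9.46% of all tested miRNAs were higher at that p. Under the other scalings 8 to 10 were above 0. Without preovulatory 1 and 4 the median was 0.37. Of the 6, only miR-92b then had an unadjusted limma p under 0.05 (0.0391), with fewer libraries compared. miR-92a was at 0.0502, miR-106b at 0.113, and miR-93, miR-20a and miR-17 at 0.582, 0.737 and 0.893. Near-identical members can share reads, and the sources used here do not say how such reads were counted, so their separate values are uncertain.

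miR-92a was higher in all 4 preovulatory libraries alike. It read 4378, 4372, 4918 and 5593 at deviation and 7386, 7805, 7301 and 9628 at preovulatory. The groups did not overlap, and each was tight, at 4816 ± 578 and 8029.8 ± 1088 (SD, n = 4 each). The log2 difference was 0.74 ± 0.25 (SE; 95% interval 0.22 to 1.26), a fitted 1.67-fold, with an unadjusted limma p of 0.00777 and an adjusted p of 0.309. Without preovulatory 1 and 4 it was 0.66. DESeq2 and weighted limma both called it. miR-92b read 210.4, 253, 189 and 94.8 at deviation and 384, 412, 1132 and 521 at preovulatory, also without overlap (log2 difference 1.65 ± 0.70, limma adjusted p = 0.324).

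miR-106b was scarce, with 13.1, 0, 94.6 and 59.3 at deviation (12 reads in all) and 645, 103, 183 and 486 at preovulatory (160 reads). All preovulatory libraries lay above, and the log2 difference was 4.04 ± 1.43, or 3.03 without libraries 1 and 4. miR-93 read 210.4, 84.4, 205 and 284 at deviation and 3195, 206, 292 and 2358 at preovulatory. miR-20a read 78.9, 127, 489 and 308 at deviation and 4649, 265, 219 and 3371 at preovulatory. Both were high in preovulatory 1 and 4, while preovulatory 2 and 3 lay in or close to the deviation range. Their log2 differences were 2.19 ± 0.81 and 2.30 ± 0.89, and 0.45 and 0.29 without libraries 1 and 4. miR-17 and miR-363 had the same shape, at 2786 and 1136 in preovulatory 1 and 1971 and 781 in preovulatory 4, against at most 252 and 78.8 elsewhere in the 8. These 2 were named after their values were seen. Without preovulatory 1 and 4 their log2 differences, 2.17 and 1.87, were 0.13 and -0.53. miR-25, from the same paralog cluster as miR-93 and miR-106b, read 5101, 9602, 4556 and 4479 at deviation and 8309, 4468, 3029.8 and 7608 at preovulatory. Libraries 1 and 4 were the higher preovulatory ones for it too, but deviation 2 lay above both (log2 difference -0.06 ± 0.40, and -0.61 without libraries 1 and 4).

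**Figure D4:**
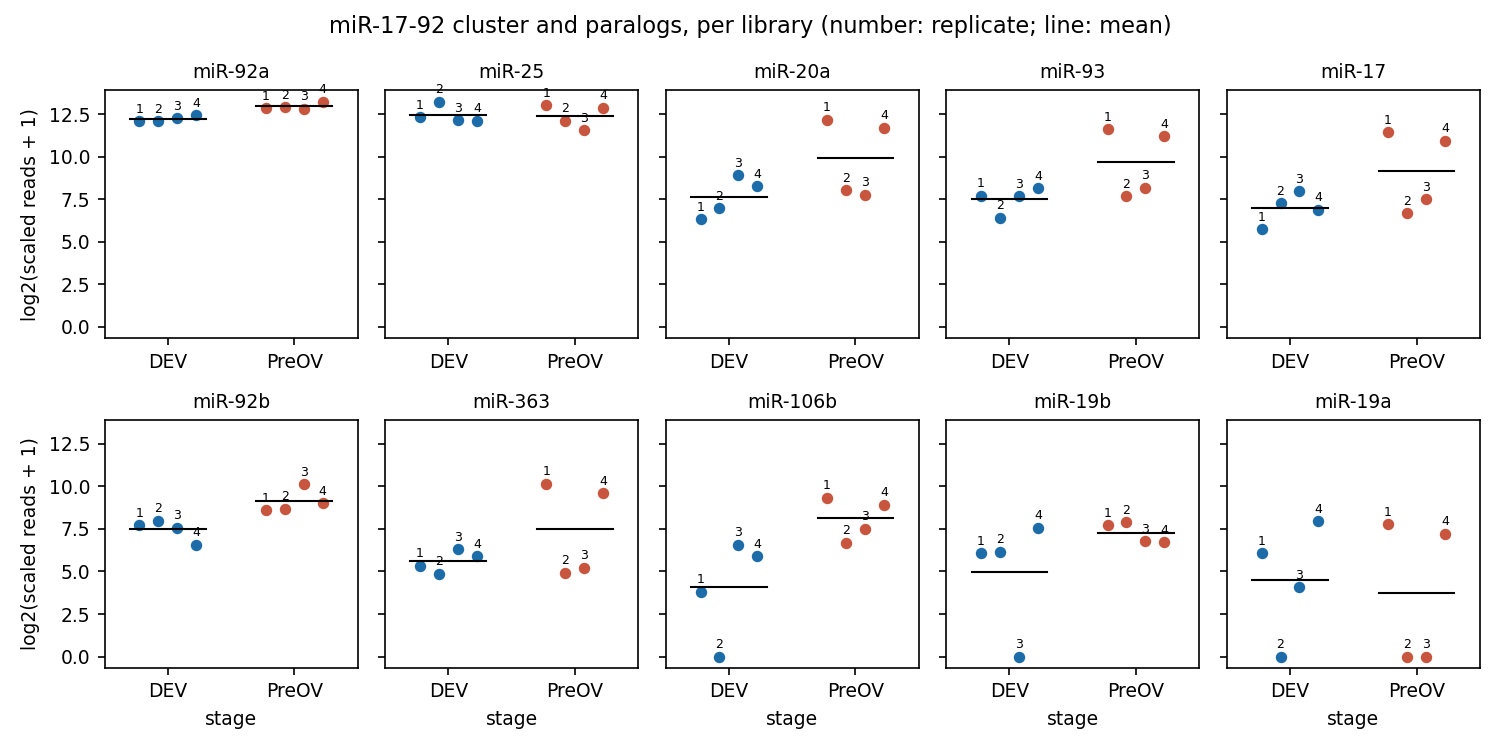
log2(scaled reads + 1) of the 10 tested members of the miR-17-92 family at deviation (DEV) and preovulatory (PreOV), with a numbered point per library and a line at the mean. For miR-17, miR-20a, miR-93 and miR-363 the high preovulatory points are libraries 1 and 4, whereas the 4 preovulatory points of miR-92a lie together, at 7301 to 9628.

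The let-7 family, which restrains growth regulators such as LIN28 and HMGA2 and marks differentiated cells, had 7 of 7 listed names in the table tested. None passed the adjusted threshold. The fitted difference was above 0 for 6 and below for 1, under every scaling tried, with a median log2 of 0.71, or 0.83 without preovulatory 1 and 4. let-7a read 7389, 6719.9, 6321 and 5309 at deviation and 10033, 11288, 11499 and 9635 at preovulatory. Its groups did not overlap (log2 difference 0.73 ± 0.27, limma adjusted p = 0.309; 0.83 without libraries 1 and 4), and weighted limma called it. miR-98, a scarcer member, read 237, 56.2, 189 and 107 at deviation and 286, 559, 329 and 465 at preovulatory, again without overlap (1.62 ± 0.62, or 1.73 without libraries 1 and 4), and DESeq2 called it. let-7e was the third without overlap, and let-7g went from 11418 ± 3504 to 17989 ± 4259.6 with overlap. let-7c ran the other way, at 16728 ± 4480.1 and 11931 ± 3578 (log2 difference -0.50 ± 0.33).

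Libraries of the preovulatory stage differed widely among themselves in miR-218, miR-9a and miR-7, miRNAs known from neural and endocrine cells. miR-218, enriched in motor neurons and lying in introns of the SLIT2 and SLIT3 genes, read 329, 478, 142 and 415 at deviation and 50254, 397, 475 and 33875 at preovulatory. It was named after its values were seen. Only preovulatory 1 and 4 were high, and there it made up 5.83% (95% Wilson interval 5.69 to 5.98) and 4.37% (4.25 to 4.50) of the reads, against at most 0.0479% in the other 6. miR-9a read 0, 942, 142 and 59.3 at deviation and 16242, 176, 256 and 11303 at preovulatory, and miR-7 read 1078, 844, 4398 and 2832 and then 32836, 1146, 1387 and 22635. For these 2 as well, preovulatory 2 and 3 lay within the deviation range and 1 and 4 far above it. The log2 differences were 3.77 ± 1.54, 4.99 ± 2.04 and 1.68 ± 1.12, with limma adjusted p of 0.320, 0.320 and 0.495. Without libraries 1 and 4 they were 0.48, 2.00 and -0.54, in the same order.

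Of 8 listed markers of neural and endocrine tissue, 4 were tested and all 4 had a fitted difference above 0, with a median log2 of 1.52, or -0.09 without preovulatory 1 and 4. None passed the adjusted threshold. miR-124, the neuron marker of the list, failed the detection rule with 17 and 13 reads in preovulatory 1 and 4 and 0 or 1 elsewhere. miR-129a-5p had 68 and 69 reads there and 1 to 9 in the other 6. miR-128 overlapped, at 16083 ± 4737 and 17875 ± 2719. The summed list ranged from 12709 to 26878 at deviation and from 19093 to 64683 at preovulatory. Among the other 12 libraries of the series, miR-9a reached 28044 in impending ovulation 2 and miR-7 33479.5 in impending ovulation 3, both above preovulatory 1. miR-218 reached at most 8030.1, in postdeviation 1, well under preovulatory 1 and 4.

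**Figure D5:**
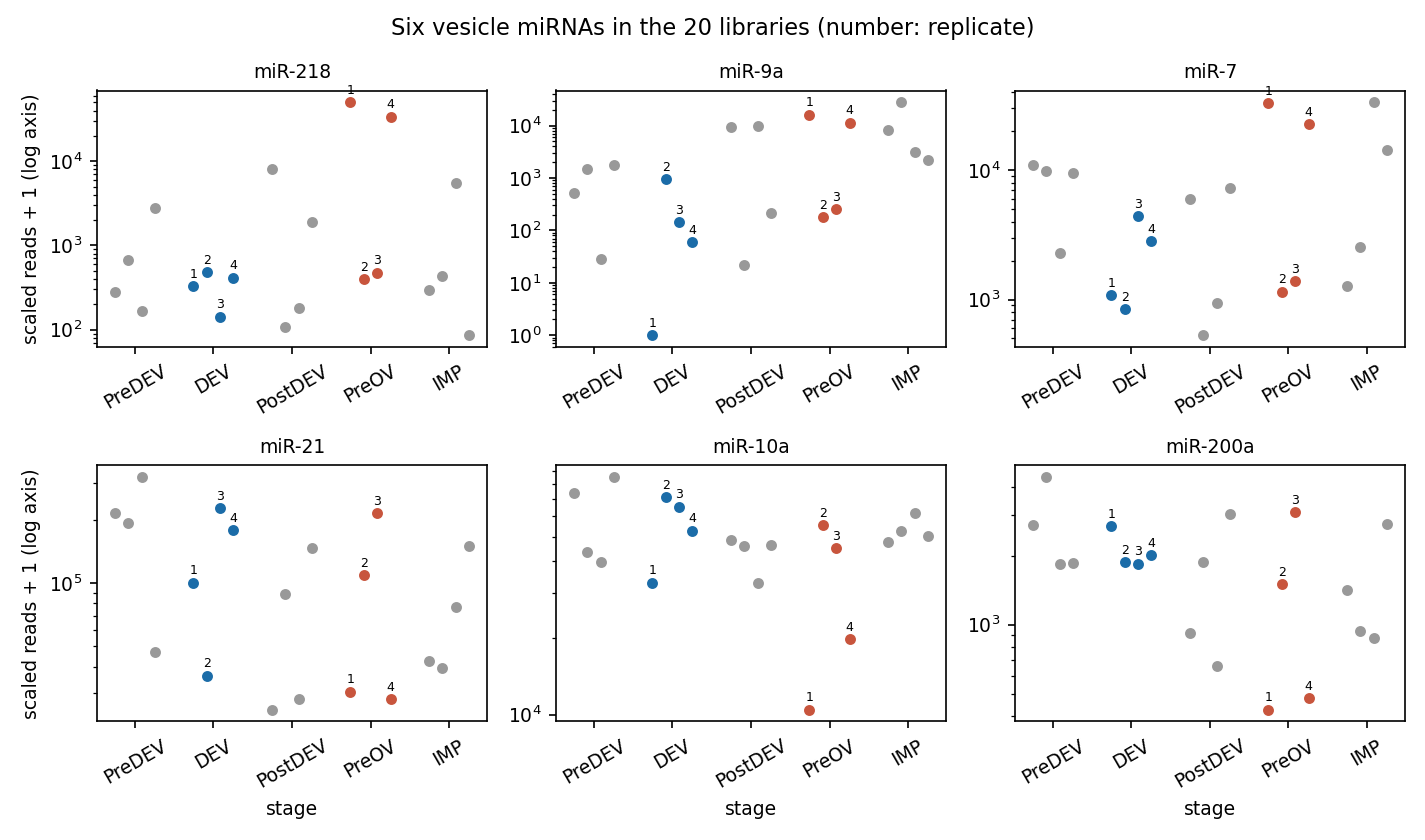
Scaled reads + 1 (log axis) of miR-218, miR-9a, miR-7, miR-21, miR-10a and miR-200a in all 20 libraries, in the order of the 5 stages (PreDEV, predeviation; IMP, impending ovulation), with a point per library and numbers on the deviation and preovulatory ones. Preovulatory 1 and 4 lie high for the first 3 miRNAs, at 50254 and 33875 for miR-218, and low for the last 3, at 425 and 479 for miR-200a.

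Among miRNAs lower at preovulatory, miR-222 had the smallest p. miR-222 and miR-221 come from 1 transcript and are known to target KIT and the cell-cycle inhibitor p27. miR-222 read 1209.6, 815, 1009 and 1185 at deviation and 204, 588, 803 and 253 at preovulatory, without overlap (log2 difference -1.40 ± 0.47, unadjusted p = 0.0071, limma adjusted p = 0.309). It was lowest in libraries 1 and 4, and without them the difference was -0.60. DESeq2 and weighted limma both called it lower. miR-221 read 1226 ± 401 and 751 ± 334, with overlap.

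miR-146a, induced by NF-kB and a brake on that pathway, read 4404, 6144, 4729 and 4574 at deviation and 1773, 3939, 4198 and 3421 at preovulatory, without overlap (-0.64 ± 0.29, limma adjusted p = 0.371; -0.27 without libraries 1 and 4). miR-27a read 12911, 11528, 10909 and 16318 and then 7034, 9377, 9491 and 9339.6, also without overlap (-0.54 ± 0.26, limma adjusted p = 0.371). Its neighbour miR-24 stood at 21927 ± 5246 and 14686 ± 2162 (-0.56 ± 0.24, limma adjusted p = 0.346). Of the 5 members of the miR-23, miR-27 and miR-24 clusters, 4 had a fitted difference below 0 (3 at equal totals), and the median was -0.31. miR-487b and miR-543, of the imprinted DLK1-DIO3 cluster, completed the 6 without overlap. These separations are those on the deposited scale, and at equal library totals 0 miRNAs were wholly lower. miR-487b read 338 ± 113 and 103 ± 68.7, and miR-543 read 2466 ± 438 and 1684 ± 177.

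The DLK1-DIO3 cluster, expressed from the maternal allele, had 30 of 52 names tested, with 12 fitted differences above 0 and 18 below, a median log2 of -0.30, or -0.47 without preovulatory 1 and 4, and 0 past the threshold. Under other scalings 11 to 15 were above 0. The miR-200 family, which keeps epithelial cells in their state by repressing ZEB1 and ZEB2, had 5 of 5 tested, 4 with a difference below 0 and a median of -0.99, or 0.05 without preovulatory 1 and 4. miR-200a read 2695, 1869.8, 1844 and 2003 at deviation and 425, 1499, 3103 and 479 at preovulatory, and libraries 1 and 4 were again the low ones. Without them its log2 difference of -1.07 was 0.054. miR-200b had the same shape, from 1375 to 2159.7 at deviation and at 376, 1073, 2592 and 499.7 at preovulatory. Weighted limma called both lower, beside miR-200c, and DESeq2 called none of the 3.

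Other miRNAs with small p were mostly higher at preovulatory. miR-199a-5p, a miRNA of stromal and mesenchymal cells, read 815, 155, 409.9 and 450.3 at deviation and 1242, 941, 1898 and 915 at preovulatory. Its groups did not overlap (log2 difference 1.61 ± 0.51, limma adjusted p = 0.309; 1.77 without libraries 1 and 4). DESeq2 called it. Its near-copy miR-199b-5p, named after its values were seen, read 2369 and 1584 in preovulatory 1 and 4 and 0 to 197 in the other 6 (log2 difference 0.43, and -3.73 without libraries 1 and 4). miR-107a, which lies in an intron of a pantothenate kinase gene, read 447, 197, 1104 and 616 at deviation and 5204, 955, 1095 and 3941 at preovulatory (2.12 ± 0.69, adjusted p = 0.309 with limma; 1.05 without libraries 1 and 4). Only libraries 1 and 4 exceeded the deviation range.

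miR-483, hosted in an intron of the growth factor gene IGF2, read 421, 42.2, 347 and 237 at deviation and 678, 1014, 548 and 450.4 at preovulatory, without overlap (1.71 ± 1.01). miR-204b read 53.7 ± 39.9 and 203 ± 116 (1.99 ± 0.76), and miR-30e, also without overlap, read 892 ± 448 and 1901 ± 309 (1.25 ± 0.58). The smallest p of all belonged to miR-1180, whose fitted difference of 4.89 ± 1.53 rests on 4 reads at deviation, all in library 3, and 39 at preovulatory. miR-1301 was as scarce, with 4 reads at deviation, all in library 1, and 29 at preovulatory. The preovulatory values of miR-1301, from 58.8 to 146, lay above the 52.6 of deviation 1. miR-3959 had 8 and 2 reads, a depth-adjusted ratio of 4.88 for deviation over preovulatory with a counting interval of 0.974 to 47.2. Such folds depend on the pseudocount.

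The miRNAs linked to LH and granulosa function overlapped between the stages. Of the LH-responsive list, miR-132 read 34.6 ± 33.7 and 61.2 ± 55.0, miR-212 failed the detection rule with 2 and 0 reads, and miR-21 is given above. The log2 difference of miR-132, -0.085, was -2.12 without preovulatory 1 and 4. The median of miR-21 and miR-132 was -0.40, and it turned above 0 with quantile normalization, DESeq2 or edgeR and was -0.82 without preovulatory 1 and 4. Of the granulosa regulators, miR-378, which acts on aromatase in pig granulosa cells, stood at 10646 ± 2686 and 7964 ± 2699.7 (-0.47 ± 0.28). miR-224 stood at 69.0 ± 75.9 and 56.4 ± 63.2, and miR-383 failed the rule with 0 and 5 reads. The list median was -0.81, and it turned to 0.23 without preovulatory 1 and 4, where miR-378 was at -0.13.

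The miR-34 and miR-449 family, whose miR-34a is a p53 target, had 3 of 6 names tested. miR-34c read 13.1, 183, 977 and 806 at deviation and 32.7, 44.1, 109.5 and 42.2 at preovulatory, with overlap (-2.04 ± 1.74), and DESeq2 called it lower. miR-34a was above 0 in 2 libraries of each stage, with 7 and 47 reads. The list median of 0.77 turned below 0 with quantile normalization (-0.66), without libraries under 40000 reads (-0.39) and without preovulatory 1 and 4 (-1.59). The X-linked miR-424 cluster, all scarce, had 5 of 8 tested and a median of -0.03, which turned above 0 at equal totals, with median of ratios rescaling, DESeq2 or edgeR, and was -1.49 without preovulatory 1 and 4. miR-450b-5p stood at 64.8 ± 28.1 and 85.4 ± 54.7. Of the X-linked miR-506 family none of 5 names met the detection rule, and its few reads were all at deviation. The hypoxia list had no name in the table.

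Further families gave 0 past the adjusted threshold. The miR-15, miR-16, miR-103 and miR-107 families had 7 tested, 5 with a difference above 0 and a median of 1.39, or 0.83 without preovulatory 1 and 4, and miR-16 read 255 ± 120.0 and 519 ± 232. Their scarce member miR-15b had 3 and 30 reads, with 19 and 9 of the latter in preovulatory 1 and 4. The depth-adjusted ratio was 8.20, with a counting interval of 2.55 to 42.0 that leaves out the spread among libraries. Its log2 difference of 3.51 was 2.49 without preovulatory 1 and 4. The miR-99, miR-100, miR-125 and miR-10 group had 8 tested and a median of -0.26, which came to 0.03 with quantile normalization and 0.07 with edgeR and TMM, and to -0.039 without preovulatory 1 and 4. The miR-26 and miR-148 group had 4 tested and a median of 0.38, or -0.22 without preovulatory 1 and 4, and miR-26a read 10192 ± 3733 and 16816 ± 6050.1. The miR-30 family had 4 tested and a median of 0.26, the miR-29 family 3 and 0.68, the miR-181 family 2 and 0.70, and the miR-183 cluster 3 and -0.29. Without preovulatory 1 and 4 these 4 medians were 0.14, 0.78, 0.089 and -0.13.

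Markers of other cell types overlapped between the stages as lists, and their part in the results above was not tested. Red blood cell markers summed to between 20750 and 30394 at deviation and between 7643 and 73092 at preovulatory, where library 2 held the top value through miR-486-5p. Of 4 names 3 were tested, 1 with a difference above 0 (3 without preovulatory 1 and 4), and miR-144 had 2 and 0 reads. Leukocyte markers had 9 of 10 tested, 6 with a difference below 0, miR-146a among them, and summed to 7312 to 9026 and 3497 to 8250. Endothelium and platelet markers had 3 of 3 tested, with a median of 0.51 and sums of 2489 to 4681 and 2034 to 6952. That median is the value of miR-223, also on the leukocyte list, with 20 and 31 reads. The abundant miR-126-3p was at -0.11 and the scarce miR-126-5p at 0.82. Without libraries under 40000 reads the median was -0.07. Liver and plasma markers had 4 of 4 tested, and summed to 71050 to 101196 and 60165 to 94719, most of it miR-192 and miR-215. miR-122, the hepatocyte miRNA, stood at 7006 ± 2637 and 7766 ± 1468.

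Muscle and stroma markers had 10 of 14 tested, 6 with a difference above 0, and summed to 22764 to 33839 and 17075 to 51982. The cardiac miR-208a and miR-208b were at 0 in all 8 libraries. miR-206, a skeletal muscle miRNA, stood at 364 ± 244 and 1122 ± 595 (1.75 ± 0.83 on the log2 scale). miR-1 reached 14821 in preovulatory 3 and lay between 189.6 and 4147 in the other 7. Its log2 difference of 1.04 was 2.48 without preovulatory 1 and 4. Stratified epithelium markers had 2 of 2 tested, both with a difference below 0, and summed to 391 to 1125 and 57.2 to 1752. miR-205 read 631, 492, 552 and 344 at deviation and 40.9, 1117, 1752 and 84.5 at preovulatory, so libraries 1 and 4 were the low ones there too, and its log2 difference of -0.77 was 1.5 without them.

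Postdeviation follicles of 26 to 29 mm lie between the stages compared. Postdeviation against deviation gave 0 past the threshold (15 at an unadjusted p under 0.05, 6.76%), and preovulatory against postdeviation gave 0 (30, 13.5%), both with limma, and each shares libraries with the main comparison. miR-92a stood at 4816 ± 578, 6627 ± 152 and 8029.8 ± 1088 from deviation to preovulatory, miR-148a at 277969 ± 56369, 206178 ± 58017 and 152965 ± 24177, and miR-222 at 1055 ± 183, 595 ± 246 and 462 ± 284. For these the middle stage had an intermediate mean. miR-106b was at 41.7 ± 43.4, 55.8 ± 47.6 and 354 ± 255, so its mean was high only at preovulatory. miR-192, an epithelial and liver miRNA, was highest in the middle, at 57726 ± 6969, 92666 ± 7439 and 51374 ± 11485, and so was miR-204b, at 399.5 ± 254 there.

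For 16 hairpins both arms were tested, and the arms had the same sign of difference in 8. miR-199a had log2 differences of 1.61 for the 5p arm and 0.47 for the 3p arm, while miR-142 had -1.58 and 1.80 on few reads.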

How the data were processed

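Small RNA of follicular fluid vesicles was sequenced from TruSeq Small RNA libraries, per the labels' protocols. The submitters' processing notes name bcl2fastq, Bowtie2 2.2.2, DESeq2 and the horse build EquCab3.0, with no role or order. The sources used here give neither the counting of reads nor the factor per library. What the authors deposited as CPM was treated as a scaled read signal, since the columns sum to between 774632 and 1778185. CPM had been planned as the unit, and the planned test on a log2 scale was kept. Of the values, 100% were whole multiples, within 1e-06, of the value of 1 read (7.04 to 36.5), so reads were recovered, 27131 to 110130 per library. Intervals (95%) of shares and of read ratios cover counting error only, as reads carry no molecular identifiers. Those of log2 differences come from limma and rest on the spread among libraries. Names carry an eca- prefix, left out here. No genome or sequence table was used.

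limma 3.58.1 (R 4.3.3) was run with an intensity trend on log2(value + 1) over all 20 libraries, with a mean per stage, two-sided, Benjamini-Hochberg over the 222 miRNAs, at a threshold of 0.05. edgeR 4.0.16 and DESeq2 1.42.0 were run on the recovered reads. DESeq2 gave no adjusted p for 65 miRNAs. Folds are on the log2(value + 1) scale. Library measures were compared by exact permutation. The labels do not tie the 20 libraries to the 19 mares and give no batch, so a p-value covers only the spread among these libraries, which may share mares. No pair of replicates agreed within sampling noise (chi-square over its degrees of freedom at least 15.6).

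The miRNAs named were the 15 with the smallest p, up to 6 higher and 6 lower without overlap, the 10 most abundant, and up to 2 per list of 26 lists. Others were named after their values were seen. The members and lists were chosen with earlier results of these data known.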

Additional observations from a re-analysis of the deposited data

Results flagged for a closer look

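Of 142 groups of 4 libraries examined, 16 held a library whose gap to the others exceeded Dixon's 95% critical value. Independent normal values would give 7.1, or 1 in 20. Scaled reads need not be normal, and a group at 0 in all libraries but 1 exceeds the value by construction. The 16 therefore cannot be read as an excess over 7.1. At deviation, library 3 was high for miR-1180, at 63.1 scaled reads against 0 in the other 3. Library 1 was high for miR-1301, at 52.6 against 0. Library 2 was high for miR-9a, at 942 against 0 to 142. It was also high for miR-224, at 183 against 26.3 to 35.6, for miR-25, at 9602 against 4479 to 5101, and for miR-31, at 633 against 26.3 to 110.3. Library 4 held 94917 recovered reads against 71805 to 75035.

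At preovulatory, library 1 was high for miR-148a, at 188836 against 137680.0 to 145935, and for miR-3959, at 16.3 against 0. It was low for miR-27a, at 7034 against 9339.6 to 9491, and for miR-378, at 3963 against 8847 to 9848. Library 2 was high for miR-486-5p, at 66743 against 7207 to 17266, for miR-451, at 4762 against 352 to 803, and for miR-126-3p, at 6805 against 1949.6 to 2738. Library 3 was high for miR-34c, at 109.5 against 32.7 to 44.1, and for miR-1, at 14821 against 528 to 1587.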

How the results depend on the processing

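The count of 0 past the threshold held under the pseudocounts, filters, scalings and left-out libraries tried and with edgeR, and was 21 with array weights and 16 with DESeq2. The count at an unadjusted p under 0.05, 29 of 222, was 56 with array weights and 17 with DESeq2 without preovulatory 1 and 4. The last alternative was chosen after seeing the data. Among the 141 miRNAs above 0 in all 8 libraries the count was 19, from fewer miRNAs tested. Leaving out 1 library gave 17 (preovulatory 4) to 36, with 19 without deviation 2. The labels do not say whether replicate numbers pair the libraries. Departures from the stage means correlated at -0.225, 0.0078, -0.0439 and 0.0880 between same-numbered libraries. Different-numbered ones ran from -0.218 to 0.200, so this check cannot show whether libraries share mares. With a replicate block limma passed 0, and 24 had an unadjusted p under 0.05.

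The 10 miRNAs wholly higher and 6 wholly lower became 5 and 7 with quantile normalization, 19 and 0 at equal totals, 14 and 12 without libraries under 40000 reads, and 25 and 23 without preovulatory 1 and 4, where fewer libraries make separation easier. With 1 library left out they ranged from 13 to 22 (19 without deviation 3, 22 without preovulatory 2) and from 8 to 13 (13 without deviation 1 or 3 or preovulatory 2 or 4, 12 without preovulatory 3). The difference in detected miRNAs per library, 6.75, ranged from -7.25 to 20.8 with 1 library left out (-3.58 without preovulatory 1), and that in recovered reads per library, -2115, from -13154 to 14490.1 (3171 without deviation 4, 1827 without preovulatory 2).

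Signs were compared in 35 to 37 alternatives per named miRNA, without the DESeq2 and weighted limma fits that left out preovulatory 1 and 4. Of 66 named miRNAs, 44 kept their sign in all alternatives compared, and 22 did not. No miRNA of either kind passed the threshold in the reported fit. Of the 22, miR-200a and miR-181b did with array weights and miR-7 with DESeq2. The cause was not tested. Without preovulatory 1 and 4 the log2 difference was 0.48 for miR-21, 0.016 for miR-10b, 0.52 for miR-486-5p, 0.062 for miR-143, 0.59 for miR-224, -2.80 for miR-34a, -0.22 for miR-181b, 0.054 for miR-200a, -0.093 for miR-127, 0.42 for miR-126-3p, 1.5 for miR-205 and -0.54 for miR-7. With quantile normalization it was 0.11 for miR-99a, 0.086 for miR-10b, 0.21 for miR-192, 1.07 for miR-132, -0.56 for miR-450b-5p, -0.43 for miR-127 and -0.18 for miR-451. At equal totals it was 0.079 for miR-99a, 0.078 for miR-192, 0.15 for miR-132, 0.21 for miR-25, 0.013 for miR-27b and 0.16 for miR-126-3p. With array weights it was -0.065 for miR-423-5p, 1.53 for miR-132, -0.065 for miR-450b-5p, 0.40 for miR-25 and -0.66 for miR-451. With edgeR and TMM it was 0.062 for miR-486-5p, 1.02 for miR-132, 0.093 for miR-25, 0.077 for miR-126-3p and 0.50 for miR-205. With edgeR on the deposited scale it was 0.041 for miR-486-5p, 0.91 for miR-132, 0.049 for miR-126-3p and 0.52 for miR-205. With DESeq2 it was 0.0082 for miR-486-5p, 0.96 for miR-132, 0.013 for miR-25, 0.031 for miR-126-3p and 0.47 for miR-205. With a pseudocount of 10 it was 0.40 for miR-132. Without libraries under 40000 reads it was 0.0012 for miR-99a, -0.057 for miR-423-5p, -0.24 for miR-450b-5p, 0.090 for miR-450c and 0.22 for miR-25. With 1 library left out it ranged from -0.61 to 0.037 for miR-99a, from -0.11 to 0.21 for miR-423-5p, from -0.87 to 1.46 for miR-132, from -2.07 to 0.33 for miR-224, from -0.37 to 2.19 for miR-34a and from -0.24 to 0.78 for miR-450b-5p. It ranged likewise from -1.96 to 0.090 for miR-450c, from -0.26 to 0.22 for miR-25, from -0.0087 to 0.53 for miR-183, from -0.045 to 0.18 for miR-127, from -0.65 to 0.60 for miR-451, from -0.50 to 0.097 for miR-126-3p and from -1.64 to 0.16 for miR-205.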
